A study of Mus musculus with 4 samples.

Results

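Streptozotocin (STZ) diabetes was examined in the gastrocnemius, a mixed but mainly fast muscle of the calf, of wild-type (WT) mice. The members are the WT array labelled STZ and the WT array labelled control, 1 array per group, which are 2 of the 4 arrays of the series. STZ was injected into the peritoneum at 50 mg/kg on each of 5 successive days, in 50 mM sodium citrate at pH 4.5, and the control mice received the citrate alone, called vehicle below. All muscles were taken 3 weeks later. The other 2 arrays come from mice without the transcription factor KLF15 in skeletal muscle alone (KO), given vehicle or STZ in the same way, and share no array with the WT pair. The sources used here do not give age, sex, strain, blood glucose, the number of animals behind each array or the means by which Klf15 was deleted.

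STZ is taken up by pancreatic beta cells and kills them, so that insulin falls and blood glucose and fatty acids rise. Insulin normally moves the transporter GLUT4 to the surface of muscle fibres, drives the synthesis of glycogen, lipid and protein, and holds back FOXO factors, which otherwise switch on genes of protein breakdown. With little insulin, muscle is known to turn from glucose to fatty acids and ketone bodies as fuel, partly through the PPAR nuclear receptors, and to lose mass, while glucocorticoids are often raised. Wild-type muscle under STZ is the reference against which the effect of a gene deletion on diabetic wasting is read.

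Levels are linear intensities of transcript clusters, the probe groups of the array. They are printed in pairs, vehicle before STZ, so the former value of each pair is the vehicle array and the latter the STZ array. Every difference is WT STZ minus WT vehicle on the scale log2(intensity + 3.69), unless the KO pair is named. The offset is percentile 25 of all values, so differences of dim genes are understated. With 1 array per group there is no replicate error and no test, so higher and lower describe these arrays and not the conditions. A gene was counted at 1.5-fold, which is 0.585 on the log2 scale. The arrays read as muscle: the summed intensity of 12 fibre markers was 59050 and 56083 in WT. Klf15 stood at 50.5 and 72.1 in WT and 19.8 and 16.04 in KO, so it was lower on the KO arrays and highest on the WT STZ array. In bulk muscle, fewer cells of a type and less RNA per cell cannot be told apart.

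Of 12321 protein-coding genes, 133 were at least 1.5-fold higher in WT STZ (1.08%) and 47 at least 1.5-fold lower (0.381%). At 2-fold the counts were 7 higher (0.0568%) and 3 lower (0.0243%). Higher genes made up 73.9% of those past 1.5-fold, and 62.7% after quantile normalization, which gave 94 higher and 56 lower. The median of all protein-coding genes was 0.0081, their SD 0.22, and 90% of them lay between -0.32 and 0.39. Of all protein-coding genes 51.6% were above 0 in WT and 42.0% in KO, beside which the counts above 0 in the lists below should be read. Just inside the threshold lay Parp12 at 0.586, Myl12a at 0.586 and Plekha3 at 0.585, and just outside it Dhrs4 at 0.584, Vamp7 at 0.582 and Igtp at 0.582. On the lower side Orm1, Rasa4 and Cacng4 lay just inside, from -0.594 to -0.585, and Nos1, Scp2d1 and Kdm4a just outside, from -0.582 to -0.579. The KO pair, measured in the same way, had 51 genes higher (0.414%) and 79 lower (0.641%) at 1.5-fold.

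**Figure D1:**
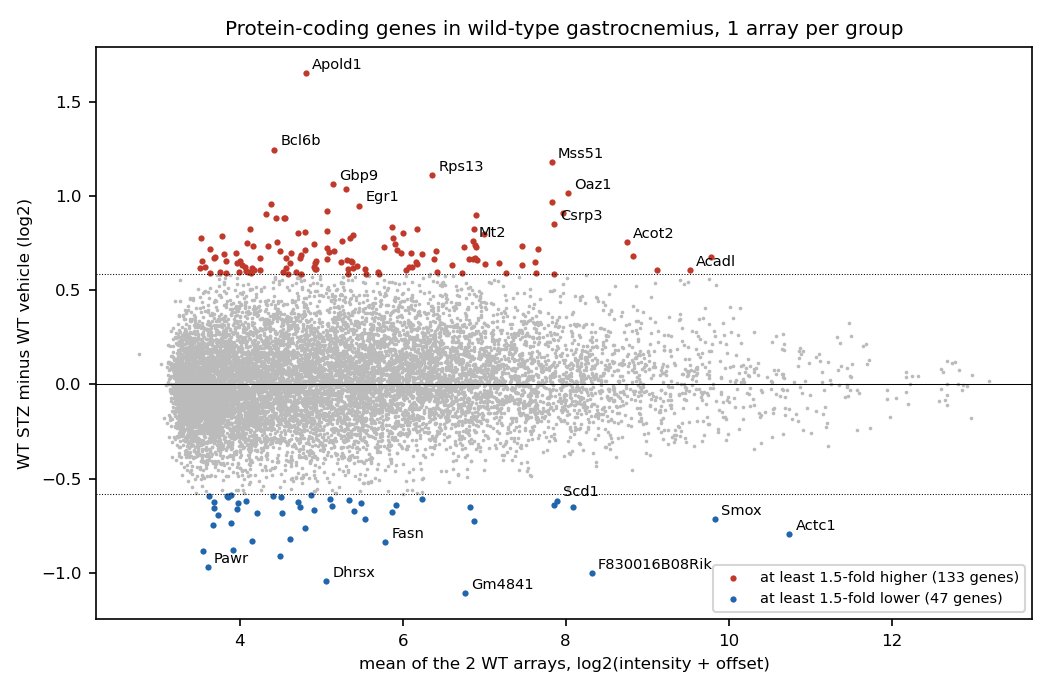
Each point is a protein-coding gene, with the mean log2 level of the WT arrays on the x axis and WT STZ minus WT vehicle (log2) on the y axis. Red points are the 133 genes at least 1.5-fold higher, blue points the 47 at least 1.5-fold lower, and dotted lines mark 1.5-fold. Apold1 stands highest and Gm4841 lowest.

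The 20 genes with the largest increases had varied known roles. Apold1, an early response gene of blood vessel endothelium, had an intensity of 12.1 and 46.03 in WT and 11.05 and 11.1 in KO, a difference of 1.65 in WT and 0.0067 in KO. Bcl6b, a transcriptional repressor known from endothelium and lymphocytes, had 10.2 and 29.4 in WT and 10.6 and 11.5 in KO. For each of these genes the WT STZ array alone was high and the other 3 lay close together. Mss51, a muscle mitochondrial protein known as a target of myostatin signalling, stood at 147 and 339 in WT and 158 and 236 in KO. Its KO difference of 0.56 had the same direction and missed 1.5-fold. Oaz1, which encodes the antizyme that marks ornithine decarboxylase for breakdown, stood at 179 and 367 in WT and 160.2 and 161 in KO. Adm, the vasodilator peptide adrenomedullin, stood at 11.3 and 25.5 in WT and 16.98 and 16.5 in KO.

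Sec61g, a subunit of the channel that takes proteins into the endoplasmic reticulum, stood at 83.6 and 159 in WT and 83.7 and 88.5 in KO. Rps13, a ribosomal protein, stood at 52.3 and 117 in WT and 60.4 and 44.6 in KO, and Rpl9, another, at 159.8 and 316 in WT and 118 and 139 in KO. Ribosomal protein genes have many near-identical pseudogene copies that can share probes, and the other cluster of Rpl9 differed by -0.11 where the brighter differed by 0.97. Atp11b, a phospholipid flippase, stood at 20.6 and 42.3 in WT, Dnajc8, a splicing-associated co-chaperone, at 40.1 and 74.6 in WT and Nkap, a nuclear regulator of transcription, at 10.96 and 23.7 in WT. Cd53, a tetraspanin of white blood cells, stood at 12.4 and 25.9 in WT and 13.6 and 14.9 in KO. Of 56 measured cytosolic ribosomal protein genes, 3 were at least 1.5-fold higher and 2 lower, namely Rps27 at -0.68 and Rps16 at -0.59, and 45 were above 0. Their median was 0.25 in WT and 0.059 in KO, and 0.17 and 0.11 after quantile normalization. This family was chosen after its values had been seen.

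Among the 20 genes with the largest decreases were Gm4841 and F830016B08Rik, of the interferon-inducible GTPases, and Fasn, which are described with their lists below. Actc1, the cardiac alpha-actin that skeletal muscle makes during development and repair, stood at 2258 and 1299.9 in WT and 2181 and 2004 in KO. Smox, the spermine oxidase, stood at 1167 and 709 in WT and 1069.5 and 718 in KO. Slc7a8, a carrier of neutral amino acids, stood at 147 and 87.4 in WT and 148 and 123 in KO. Actc1 was low on the WT STZ array alone, while Smox was low on both STZ arrays. Dhrsx, a dehydrogenase of the short-chain family, stood at 44.3 and 19.6 in WT and 32.6 and 37.5 in KO, and Dnm1, the dynamin of neurons, at 27.2 and 12.7 in WT and 15.7 and 18.5 in KO. Pawr, a pro-apoptotic regulator, stood at 13.3 and 5.01 in WT, Hdac7, a histone deacetylase, at 19.8 and 10.9 in WT, Gdap1, a mitochondrial fission factor, at 55.7 and 32.5 in WT and Aldoc, an aldolase isoform of brain, at 13.3 and 6.795 in WT. Several of these were near background, with WT STZ values of 5.01 for Pawr, 6.795 for Aldoc and 6.12 for Polr2l, a shared RNA polymerase subunit. The level filter corresponded to an intensity of 5.81. Sox21 had a second cluster that differed by 0.047 where the brighter differed by -0.82.

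**Figure D2:**
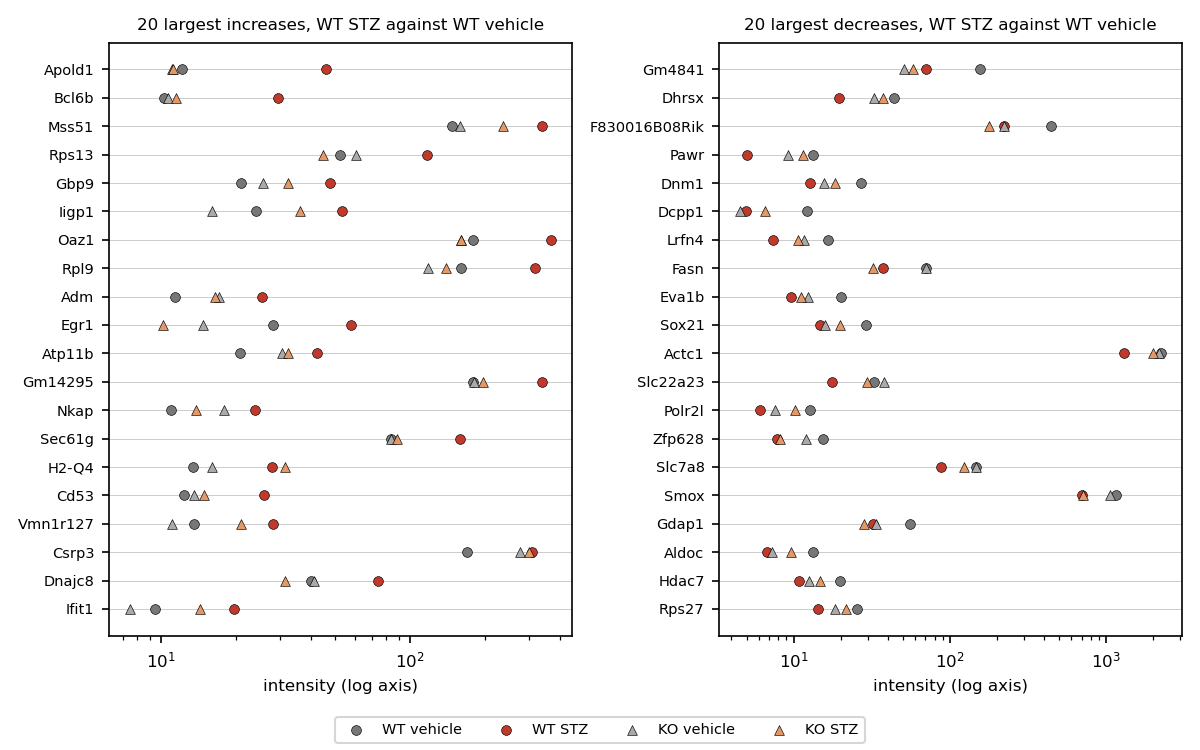
The 20 protein-coding genes with the largest increases (left) and decreases (right), each with its intensity on the 4 arrays on a log axis. Circles are WT arrays, triangles KO arrays, and each point is 1 array. Apold1 and Bcl6b are high in WT STZ alone, whereas Gm4841 and F830016B08Rik are high in WT vehicle alone.

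The KO arrays show where each WT array stood beside arrays of the other genotype. With 1 array per group, an odd WT array and a difference between genotypes cannot be told apart. This holds wherever an array is called odd, high or low. Of the 133 higher genes, WT STZ was the highest of the 4 arrays in 122, and WT vehicle the lowest of the 4 in 79. Over all protein-coding genes these positions were taken by 32.3% and 20.4%, and because the genes were chosen for WT STZ above WT vehicle, high shares follow from the choice. WT STZ was at least 1.5-fold above each of the other 3 arrays for 38 genes, and WT vehicle at least 1.5-fold below each of the other 3 for 6, namely Csrp3, Smtnl1, Cyp2f2, Prg4, Nupr1 and Cilp. For Csrp3, a Z-disc protein that senses stretch, the intensity was 169 and 308 in WT and 278 and 301 in KO. WT vehicle was the lowest array, and the KO vehicle array was close to the WT STZ array. Smtnl1, a smoothelin-like protein of fast muscle, stood at 87.97 and 149 in WT and 166 and 144 in KO. Of the 47 lower genes, WT STZ was at least 1.5-fold below each other array for 6 (Dhrsx, Actc1, Slc22a23, Fut11, Vmn1r36 and Obsl1), and WT vehicle at least 1.5-fold above each other array for another 6 (Gm4841, F830016B08Rik, Dcpp1, Gdap1, Mical2 and Golga7b).

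Genes that bring fatty acids into the fibre and its mitochondria were mostly higher in WT STZ. Of 13 measured genes, 9 were above 0 in WT and 2 in KO, with medians of 0.10 and -0.25, the former 0.065 after quantile normalization. Slc25a20, the carnitine-acylcarnitine carrier of the inner mitochondrial membrane, was the member past 1.5-fold, at 138 and 217 in WT and 125 and 133 in KO. Cd36, the fatty acid transporter of the cell surface, stood at 556 and 816 in WT and 684 and 543 in KO, which is 0.55 in WT and -0.33 in KO. Slc27a1, the transport protein FATP1, stood at 143 and 189.8 in WT and 103 and 77.3 in KO. Mlycd, which removes the malonyl-CoA that blocks the carnitine shuttle, differed by 0.40 in WT and 0.083 in KO. After quantile normalization the Slc25a20 difference was 0.54, below 1.5-fold.

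The beta-oxidation spiral followed the same direction. Of 17 measured genes, 15 were above 0 in WT, 1 was at least 1.5-fold higher and 0 lower, with a median of 0.18, and in KO 5 were above 0 with a median of -0.025. Over the alternative settings the WT median ran from 0.12 to 0.18. Acadl, the long-chain acyl-CoA dehydrogenase, stood at 593 and 904 in WT and 569 and 504 in KO, and was below 1.5-fold after quantile normalization (0.51) and after a loess trend was removed (0.56). Ech1, which isomerises unsaturated intermediates, stood at 764 and 1102 in WT and 662 and 659.7 in KO. Acaa2, the thiolase of the last step, stood at 306 and 410.2 in WT and 264 and 254 in KO, and Etfdh, which passes the electrons on to ubiquinone, at 359 and 470.2 in WT and 388 and 331 in KO. For Acadl, Ech1 and Acaa2 the WT STZ array was the highest and the other 3 lay below it, whereas for Etfdh the KO vehicle array came next.

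The wider list of PPAR and fasting-type targets was uneven. Of 19 measured genes, 3 were at least 1.5-fold higher, namely Acot2, Slc25a20 and Acadl, of which the latter pair also belong to the lists above. Acot2, a mitochondrial thioesterase that cuts long-chain acyl-CoA and has close copies that can share probes, stood at 328 and 556 in WT and 309 and 212 in KO. It was higher under STZ in WT and lower under STZ in KO. Pdk4, the kinase that shuts off pyruvate dehydrogenase in fasting and diabetes, stood at 1401 and 1677 in WT and 1514 and 1066 in KO, so its WT difference was 0.26. Ucp3, an uncoupling protein induced by fatty acids, stood at 291 and 302 in WT, and Angptl4, an inhibitor of lipoprotein lipase, at 17.1 and 17.4 in WT. These well-known diabetic responders thus differed by less than 1.5-fold on the WT arrays. Of the 19 measured regulators of this programme 13 were below 0, among them Ppara at -0.46 and Ppargc1a at -0.30. Hilpda, a lipid droplet protein, stood at -0.30, Plin5, which ties droplets to mitochondria, at 0.33 and Pnpla2, the adipose triglyceride lipase, at 0.28.

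Fat cells express several of the same genes. The summed intensity of 9 matched adipocyte markers, of which 7 passed the level filter, was 1119 and 1388 in WT and 1132 and 906 in KO, of which Fabp4, also made by endothelium, was most. Adipoq, confined to fat cells, stood at 14.8 and 17.5 in WT and 18.9 and 12.1 in KO, Plin1, the droplet coat of fat cells, at 20.3 and 22.7 in WT and 22.99 and 13.4 in KO and Retn, the adipokine resistin, at 79.8 and 82.2 in WT and 106 and 61.1 in KO. Lep, which encodes leptin, lay below the level filter. The marker sum was thus highest in WT STZ and lowest in KO STZ, as were Cd36, Slc27a1 and Acot2. Fabp4 alone had this order, at 934 and 1194 in WT and 912 and 763 in KO. Adipoq, Plin1 and Retn were instead highest in KO vehicle, though also lowest in KO STZ. The part of fat cells in those results was not tested.

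Genes of lipid synthesis were lower on both STZ arrays where they differed most. Of 17 measured genes of fatty acid synthesis, 2 were at least 1.5-fold lower and 0 higher, with a median of -0.050, and -0.085 with the level filter at percentile 75. Fasn, the fatty acid synthase, stood at 70.1 and 37.6 in WT and 70.9 and 32.04 in KO, and Scd1, the stearoyl-CoA desaturase, at 291 and 188 in WT and 396 and 141 in KO. Both STZ arrays were below both vehicle arrays for each gene. How many of all genes had such an order was not counted, here or for the other genes described by it. The WT difference was -0.84 for Fasn and -0.62 for Scd1, against -1.06 and -1.47 in KO. Slc25a1, the citrate carrier that supplies the cytosol with carbon for lipid, had 51.2 and 34.4 in WT and 59.3 and 38.3 in KO, the same order. Acss2, which activates acetate, differed by -0.37. Srebf1, the insulin-driven regulator of these genes, differed by -0.093 in WT and -0.54 in KO. Of the 7 adipocyte markers above the filter, 5 were above 0 in WT, with a median of 0.12, and 0 in KO, with a median of -0.52, and their part in these results was not tested.

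Cholesterol genes gave 1 of 15 at least 1.5-fold higher, Cyp51, the lanosterol demethylase, which was dim at 5.93 and 11.1 in WT. The list median was -0.14, and -0.013 with the level filter at percentile 75, with Sqle, the squalene epoxidase, at -0.38, Sc5d at -0.26 and Mvd at -0.26.

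No measured gene of glucose uptake and glycolysis reached 1.5-fold in either direction, out of 18, and 13 were below 0 in WT and 16 in KO. Hk2, the insulin-induced hexokinase of muscle, stood at 446 and 340.1 in WT and 523 and 371 in KO. Slc2a4, which encodes GLUT4, stood at 603 and 513 in WT and 577 and 465 in KO. Both STZ arrays were below both vehicle arrays for Hk2 and for Slc2a4, with differences of -0.39 and -0.23 in WT. That order was not counted over all genes. The Slc2a4 difference lay within the central range of all protein-coding genes given above (-0.32 to 0.39). Slc16a3, the lactate exporter MCT4, differed by -0.24 and Ldhb, the lactate dehydrogenase subunit of oxidative tissue, by 0.28. The list median was -0.073, and -0.12 after a loess trend was removed.

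Glycogen genes had a median of 0.012, which was below 0 after quantile normalization (-0.054). Ppp1r3d, a glycogen-targeting subunit of protein phosphatase 1, was past 1.5-fold at 9.29 and 15.9 in WT, and below it with the offset at percentile 50 (0.53). Stbd1, which carries glycogen to lysosomes, stood at 41.3 and 27.1 in WT and 46.5 and 38.2 in KO, lowest in WT STZ. Gbe1, the branching enzyme, differed by 0.28 and Phkb, a phosphorylase kinase subunit, by -0.27.

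The list of glucose-responsive genes and genes of glucose side pathways (polyol and hexosamine) had 8 of 11 above 0, with none past 1.5-fold. Arrdc4, a glucose-induced arrestin relative, stood at 26.9 and 39.8 in WT and 26.4 and 20.8 in KO, and its relative Txnip at 1539 and 1749.5 in WT and 1237 and 1182 in KO. Gfpt2, an enzyme of the hexosamine pathway, stood at 19.2 and 28.8 in WT and 14.9 and 15.3 in KO. Mlx, partner of the glucose-sensing factors ChREBP and MondoA, differed by 0.44 in WT and 0.45 in KO. Slc2a3, a high-affinity glucose transporter best known from neurons, was at least 1.5-fold higher, at 10.6 and 18.2 in WT. The pyruvate dehydrogenase list had a median of 0.045, which was -0.044 after quantile normalization, with Pdp1, the activating phosphatase, at 0.29 in both WT and KO. Of the genes of ketone body use Bdh1 differed by -0.39 in WT and -0.45 in KO, Oxct1 by -0.25, Slc16a1 by 0.10 and Acat1 by 0.072.

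Among insulin and IGF signalling genes, 0 of 29 passed 1.5-fold. The list split, with 17 below 0 and a median of -0.014, which was -0.083 after quantile normalization. Pik3cb, a catalytic subunit of PI 3-kinase, stood at 32.8 and 20.98 in WT and 34.2 and 21.5 in KO, lower on both STZ arrays, and it passed 1.5-fold after quantile normalization (-0.60) and after a loess trend was removed (-0.59). Igf1, the growth factor that muscle makes for itself, stood at 53.5 and 36.03 in WT and 49.9 and 49.3 in KO, so WT STZ was the low array. Igf2, its relative, differed by -0.42 in WT and -0.13 in KO. Irs1, the insulin receptor substrate, stood at 89.03 and 71.9 in WT and 90.98 and 71.7 in KO, again lower on both STZ arrays, while Irs2 differed by -0.014 in WT. Socs2, which restrains growth hormone signalling, was at least 1.5-fold lower, at 40.2 and 24.4 in WT and 27.01 and 26.8 in KO, with WT vehicle as the high array.

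Of 25 measured FOXO factors and ubiquitin ligases of atrophy, 1 passed 1.5-fold, Cebpd, a glucocorticoid-induced C/EBP factor, which was dim at 7.28 and 14.04 in WT and 10.3 and 11.8 in KO. Fbxo32, the ligase atrogin-1, stood at 542 and 696 in WT and 529.5 and 427 in KO, and Trim63, the ligase MuRF1, at 303 and 400.05 in WT and 395 and 345 in KO. Fbxo32 was highest on the WT STZ array and lowest on the KO STZ array. For Trim63 the KO vehicle array was close to WT STZ, so WT vehicle was the low array. Foxo1 stood at 66.4 and 47.2 in WT and 90.1 and 71.5 in KO by its brighter cluster, and its other cluster differed by -0.079 where this differed by -0.46. Trim55, the relative MuRF2, differed by -0.40 and Wwp1, a ligase known to act on KLF15, by -0.041. The list median was 0.013, and its sign turned under quantile normalization.

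Protein breakdown machinery showed no member past 1.5-fold among 29 proteasome subunits and 29 autophagy and lysosome genes. The medians were 0.088 and 0.076 in WT, and -0.0071 and -0.088 in KO. After quantile normalization the WT medians were 0.019 and 0.022. Psma7, a subunit of the core particle, stood at 255 and 346 in WT and 262 and 277 in KO, and Psmd14, the deubiquitinase of the lid, differed by 0.38. Lamp2, a lysosomal membrane protein, stood at 99.9 and 142 in WT and 91.7 and 87.7 in KO, and Atg3, which conjugates LC3 to lipid, at 102 and 144 in WT and 111 and 105 in KO. For Psma7, Lamp2 and Atg3 the WT STZ array was the highest of the 4. Retreg1, a receptor for autophagy of the endoplasmic reticulum, was at least 1.5-fold higher, at 447 and 682 in WT. Of 27 genes of amino acid breakdown none passed 1.5-fold, and the widest were Mcee, the methylmalonyl-CoA epimerase, at 0.48, Aldh4a1, of proline breakdown, at -0.45, Ivd, of leucine breakdown, at -0.41 and Bcat2, the branched-chain aminotransferase, at 0.40.

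Glucocorticoid-responsive genes had 4 of 24 members at least 1.5-fold higher and 0 lower. They were Mt2, Errfi1, Cebpd and Cdkn1a. Errfi1, an inhibitor of the EGF receptor, stood at 79.9 and 135 in WT and 63.9 and 74.4 in KO. Cdkn1a, the cell cycle inhibitor p21, stood at 62.8 and 102 in WT and 75.8 and 98.1 in KO, and was just below 1.5-fold after quantile normalization (0.583). Other standard members did not follow: Fkbp5, an immunophilin, stood at 43.9 and 49.99 in WT, and Tsc22d3, the factor GILZ, at 149.8 and 148 in WT. The list median was 0.10 in WT and 0.047 in KO, and 0.052 in WT after quantile normalization.

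Metallothioneins are small proteins that bind zinc and are induced by zinc, glucocorticoids and oxidants. Mt2 stood at 85.5 and 148 in WT and 125 and 163 in KO, and Mt1 at 126 and 176 in WT and 154 and 168 in KO. WT vehicle was the lowest array for each, and KO vehicle lay between. The stretch before the Mt2 start is shown because it holds several of the motifs searched. It is the 250 bases before the start in RefSeq (GRCm38.p6), chr8:94172368-94172617 on the + strand, with matches to the metal response core TGCGCNC or TGCACNC and to the antioxidant element TGACNNNGC, on either strand, in capitals.
Mt2: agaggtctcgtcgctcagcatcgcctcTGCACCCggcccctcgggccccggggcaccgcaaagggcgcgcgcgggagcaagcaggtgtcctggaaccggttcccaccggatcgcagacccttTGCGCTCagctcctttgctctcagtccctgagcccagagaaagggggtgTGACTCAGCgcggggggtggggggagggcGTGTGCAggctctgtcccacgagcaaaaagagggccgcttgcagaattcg
The window held 3 metal response cores and 1 antioxidant element. Of 27025 genes with such windows, 23.8% held a metal response core and 11.5% an antioxidant element, and of the 102 higher genes with a window, 25 (24.5%) and 18 (17.6%) did. Of the 38 lower genes with a window, 12 (31.6%) and 4 (10.5%) did. A match describes letters and not a bound site.

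Antioxidant genes of the NRF2 type had 1 of 20 past 1.5-fold, with a median of 0.12 (0.071 after quantile normalization) in WT and -0.089 in KO. Nqo1, a quinone reductase and standard NRF2 target, stood at 92.1 and 148 in WT and 89.1 and 87.8 in KO, high on the WT STZ array alone. Gstm2, a glutathione transferase with close copies, stood at 22.4 and 35.1 in WT and 12.5 and 21.8 in KO, and Hmox1, the heme oxygenase, at 12.5 and 17.9 in WT and 16.2 and 11.4 in KO. Osgin1, a growth inhibitor induced by oxidants, went the other way at 39.04 and 25.3 in WT and 26.7 and 36.1 in KO. Ephx1, the microsomal epoxide hydrolase, was at least 1.5-fold higher, at 66.1 and 102 in WT.

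Interferon genes were mostly higher on both STZ arrays. Of 23 measured genes of the type I response, 20 were above 0 in WT and 15 in KO, and 1 in WT and 2 in KO were at least 1.5-fold higher. The list medians were 0.11 in WT and 0.22 in KO, and the WT median ran from 0.056 to 0.27 over the alternative settings. Ifit1, which binds foreign RNA ends, was past 1.5-fold in both pairs, with 9.39 and 19.5 in WT and 7.48 and 14.3 in KO. The STZ arrays did not overlap the vehicle arrays for Ifit1, which was dim, and how many of all genes had that order was not counted. Rtp4 stood at 0.52 in WT, Irf7, a regulator of the response, at 0.39 in WT and 0.40 in KO, and Ifih1, the RNA sensor MDA5, at 0.36 and 0.22. The 250 bases before the Ifit1 start (RefSeq, GRCm38.p6, chr19:34640639-34640888, + strand) are shown because the gene was higher in both pairs. Capitals mark matches to the interferon-stimulated response element, ISRE, on either strand.
Ifit1: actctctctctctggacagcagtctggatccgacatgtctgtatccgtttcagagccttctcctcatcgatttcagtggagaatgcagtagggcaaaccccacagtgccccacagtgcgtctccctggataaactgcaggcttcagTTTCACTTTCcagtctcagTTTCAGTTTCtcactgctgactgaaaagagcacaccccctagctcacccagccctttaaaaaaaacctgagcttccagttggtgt
The window held 2 such matches, from -104 to -95 and from -85 to -76 before the start. ISRE matches were present in 3.46% of all genes with a window, in 6 of the 102 higher genes (5.88%) and in 3 of the 38 lower genes (7.89%).

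The interferon-inducible GTPases, which attack vacuoles that hold parasites and bacteria, gave the widest range of the 56 lists. Of 11 measured genes, 4 were at least 1.5-fold higher and 2 lower, with a median of 0.32, and 0.18 with no level filter. Iigp1 stood at 23.9 and 53.03 in WT and 15.99 and 36.1 in KO, Gbp9 at 20.8 and 47.6 in WT and 25.6 and 32.3 in KO, Gbp10 at 89.5 and 151 in WT and 109.8 and 139 in KO and Gbp3 at 5.99 and 12.3 in WT and 4.72 and 10.2 in KO. Iigp1 and Gbp3 were past 1.5-fold in both pairs, and for each of these 4 genes both STZ arrays were above both vehicle arrays. The 4 were picked as higher in WT, so the WT part of that order follows from the choice. How many of all genes had the order was not counted. Gbp3 was dim, with vehicle values of 5.99 in WT and 4.72 in KO, around the level filter. That filter used the mean of all 4 arrays, and Gbp3 passed it only through its STZ values. Gm4841 stood at 156 and 70.1 in WT and 50.6 and 58.2 in KO and F830016B08Rik at 449 and 222 in WT and 224 and 178 in KO. In these cases the WT vehicle array was high and the remaining 3 lay together. The family has close copies that can share probes.

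Antigen presentation genes were mostly higher on both STZ arrays too. Of 14 measured genes of class I and peptide loading, 9 were above 0 in WT and 10 in KO, with medians of 0.25 and 0.20. Of these, 1 was at least 1.5-fold higher in WT and 4 in KO, and 0 were at least 1.5-fold lower in WT. The WT median ran from 0.16 to 0.39 over the alternative settings. H2-Q4, a class I gene with close copies, stood at 13.4 and 27.9 in WT and 15.9 and 31.3 in KO, its second cluster differing by 0.19 in WT. B2m, the light chain of class I, stood at 974 and 1292 in WT and 969.8 and 1264 in KO, and H2-K1, a classical heavy chain, at 103 and 142 in WT and 97.1 and 113 in KO. Psmb10, an immunoproteasome subunit, differed by 0.46 in WT and -0.12 in KO. Of the class II genes, H2-Ab1 stood at 74.5 and 118 in WT and 79.5 and 116 in KO and H2-Aa at 20.5 and 28.04 in WT and 23.3 and 36.01 in KO. For B2m, H2-K1, H2-Ab1 and H2-Aa, both STZ arrays were above both vehicle arrays, an order that was not counted over all genes. The summed intensity of 15 matched macrophage markers, of which 13 passed the level filter, was 405 and 489 in WT and 439 and 515 in KO. Of those 13, 10 were above 0 in WT, led by Lyz2, the lysozyme of myeloid cells, at 0.54 and Cd68, a lysosomal protein of macrophages, at 0.47. Ctss, a protease that prepares class II molecules, was at least 1.5-fold higher, at 21.6 and 40.7 in WT. The part of macrophages in these results was not tested. T and NK cell markers passed the level filter in 3 of 12 matched genes, and neutrophil markers in 0 of 9.

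Immediate early genes, which switch on within minutes of contraction, stretch or growth factors, had 6 of 31 members at least 1.5-fold higher and 0 lower. They were Egr1, Nr4a3, Ccn1, Btg2, Klf10 and Klf4. Egr1, a zinc-finger factor, stood at 28.1 and 57.7 in WT and 14.7 and 10.1 in KO. Ccn1, a matrix-associated growth signal, stood at 93.4 and 165 in WT and 87.4 and 95.1 in KO, Btg2, an antiproliferative factor, at 28.1 and 51.6 in WT and 24.4 and 24.6 in KO and Klf10, a TGF-beta-induced factor, at 41.3 and 73.6 in WT and 30.9 and 29.5 in KO. In these 4 genes the WT STZ array was at least 1.5-fold above each other array. Fos, the best-known member, did not share this direction: it stood at 28.1 and 27.2 in WT. The list median was 0.20 in WT and 0.012 in KO, and 0.32 in WT with the level filter at percentile 75. Klf4 was just below 1.5-fold after quantile normalization (0.57).

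Nr4a3, an orphan nuclear receptor induced by exercise and beta-adrenergic signals, stood at 16.2 and 31.1 in WT and 33.8 and 14.5 in KO. It was higher under STZ in WT and lower under STZ in KO, and the WT STZ value was close to the KO vehicle value. Its upstream window (RefSeq, GRCm38.p6, chr4:48045055-48045304, + strand) is shown for that reversal, with the motifs spelt above in capitals.
Nr4a3: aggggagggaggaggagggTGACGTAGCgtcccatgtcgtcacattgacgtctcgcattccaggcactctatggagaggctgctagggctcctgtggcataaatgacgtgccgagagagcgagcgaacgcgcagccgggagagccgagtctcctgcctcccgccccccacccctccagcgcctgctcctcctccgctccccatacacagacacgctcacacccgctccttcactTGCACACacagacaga
It held 1 metal response core and 1 antioxidant element, and no match to the full cyclic AMP element TGACGTCA. The antioxidant match, TGACGTAGC, begins with TGACGT, as the cyclic AMP element does, and partial matches were not searched.

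Endothelial markers as a sum were close to level between the WT arrays. These markers, from which Apold1 and Bcl6b had been kept apart, had a summed intensity of 1110 and 1112 in WT, and 0 of 18 passed 1.5-fold. Emcn, a surface mucin of capillaries and veins, stood at 0.44 and Cldn5, a tight junction protein, at 0.44, while Sox18 and Sox17, vessel transcription factors, stood at -0.42 and -0.36. Klf2, a flow-induced factor of endothelium, stood at 64.7 and 96.4 in WT and 60.1 and 63.8 in KO. Kcnj8, a potassium channel subunit of pericytes and smooth muscle, was at least 1.5-fold higher, at 45.96 and 76.7 in WT and 57.9 and 60.8 in KO, and Abcc9, its partner subunit, differed by -0.30. Lyve1, a receptor of lymphatic endothelium and some macrophages, was past 1.5-fold at 38.6 and 66.4 in WT and 55.98 and 47.8 in KO.

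Genes of slow fibres were mostly higher in WT STZ and those of fast fibres were near 0. Of 13 slow fibre genes, 3 were at least 1.5-fold higher and 9 above 0, with a median of 0.25 in WT and -0.20 in KO. Of 16 fast fibre genes none passed 1.5-fold, 14 were below 0 and the median was -0.031, and -0.080 after a loess trend was removed. Tnni1, the slow troponin I, stood at 50.9 and 80.3 in WT and 35.2 and 29.9 in KO, and Myoz2, a calcineurin-binding Z-disc protein, at 355 and 573 in WT and 532 and 467 in KO. Csrp3 has been given above, and with Myoz2 it shares a low WT vehicle value, whereas for Tnni1 the WT STZ array was the odd one. Ankrd2, a stretch-responsive protein, stood at 208 and 293 in WT and 310.3 and 253 in KO, and was also lowest in WT vehicle. Myh7, which encodes the slow myosin heavy chain itself, stood at 192 and 180.4 in WT, a difference of -0.087. Myh1, the fast 2X myosin, stood at 2257 and 1889 in WT and 2660.2 and 2591 in KO, and Mybpc2, the fast myosin-binding protein, at 3679 and 3129.8 in WT and 3448 and 3349 in KO. Tnni1 was below 1.5-fold after quantile normalization (0.55).

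Genes of excitability and growth control gave single members. Kcng4, a modulatory potassium channel subunit, stood at 71.7 and 44.7 in WT and 80.2 and 42.9 in KO, lower on both STZ arrays and past 1.5-fold in both pairs. Kcnj2, an inward rectifier that holds the resting potential, stood at 70.4 and 104 in WT and 78.6 and 64.1 in KO, and Ryr1, the calcium release channel, at 2673 and 2133 in WT and 2698 and 2445 in KO. Acvr2b, the receptor of myostatin and activin, was at least 1.5-fold lower, at 29.7 and 17.6 in WT and 19.9 and 22.4 in KO, and Gdf11, a close relative of myostatin, stood at 42.6 and 29.4 in WT and 26.3 and 25.5 in KO. For both genes WT vehicle was the highest array and the remaining 3 lay nearer each other. Myostatin itself, Mstn, stood at 446 and 467 in WT. Of the muscle-secreted factors Il15, a cytokine with effects on lymphocytes and muscle mass, was past 1.5-fold at 10.6 and 17.9 in WT and 9.57 and 7.804 in KO, and Ostn, the peptide musclin, stood at 117 and 83.3 in WT and 51.8 and 45.9 in KO. Chrnb1, a subunit of the acetylcholine receptor, differed by 0.45 in WT and 0.48 in KO, while Musk, the kinase that organises the synapse, differed by -0.34 and -0.62.

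Polyamine genes differed in opposite directions. Oaz1, given above, was at least 1.5-fold higher and Smox at least 1.5-fold lower, out of 7 measured. Srm, the spermidine synthase, stood at 60.6 and 43.3 in WT and 47.9 and 49.04 in KO, and Sat1, the acetyltransferase that starts polyamine export, at 24.1 and 28.6 in WT and 23.7 and 27.9 in KO. For Srm WT vehicle was the highest array, whereas Sat1 was a little higher on both STZ arrays.

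Mitochondrial energy genes shifted little. Of 37 subunits of oxidative phosphorylation none passed 1.5-fold, 29 were above 0 in WT and 8 in KO, and the medians were 0.075 and -0.062. The WT median was 0.011 after quantile normalization and 0.028 after a loess trend was removed. Of 17 genes of the citric acid cycle none passed 1.5-fold, and the widest was Idh2, the mitochondrial isocitrate dehydrogenase, at 710.003 and 1049.8 in WT and 743 and 616 in KO. As a whole, the 6962 brightest protein-coding genes (level filter at percentile 75) had medians of 0.033 in WT and -0.065 in KO, and 56.4% and 35.5% of them were above 0, beside which the medians and counts of bright lists should be read.

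Stress and clock genes showed few members past 1.5-fold. Of 16 heat shock genes, Dnajb1, a co-chaperone, was past it at 17.3 and 28.1 in WT and 15.8 and 11.03 in KO, and Hspa1b, the inducible chaperone with a near-identical copy, stood at 44.6 and 66.8 in WT and 54.9 and 17.8 in KO. Of 17 genes of the integrated stress response, Nupr1, a stress-induced chromatin protein, was past it at 30.2 and 48.3 in WT and 63.3 and 63.04 in KO, while Atf4, the central factor, differed by 0.22 and Trib3, its target, by -0.19. Nupr1 was low in WT vehicle and the other 3 arrays were higher. Cry1, a clock repressor, stood at 33.4 and 22.2 in WT and 19.8 and 22.9 in KO, a difference of -0.52, and Dbp, a clock output factor, differed by -0.28. For Cry1 WT vehicle was the high array. The times of day at which muscles were taken are not stated in the labels.

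Matrix and tendon genes went in different directions. Extracellular matrix genes were below 0 in 16 of 20 cases with a median of -0.075 (-0.12 after quantile normalization) and none past 1.5-fold, led by the laminin subunits Lamc1 at 213 and 156 in WT and 266 and 264 in KO and Lamb1 at 67.8 and 52.9 in WT and 86.6 and 67.5 in KO. Tendon markers had a summed intensity of 552 and 628 in WT and 731 and 729 in KO. Tnmd, the tendon protein tenomodulin, stood at 20.7 and 32.5 in WT and 31.9 and 32.9 in KO. Aspn, a small proteoglycan of connective tissue, was at least 1.5-fold higher at 84.7 and 153 in WT and 101 and 87.8 in KO, as were Prg4, the lubricant of joints and tendon sheaths, at 29.4 and 48.3 in WT and 58.2 and 57.6 in KO and Cilp, a cartilage matrix protein, at 29.1 and 45.6 in WT and 53.4 and 47.1 in KO. For Tnmd, Prg4 and Cilp the WT vehicle array was the low array and the other 3 were closer together, whereas Aspn was high in WT STZ alone. The part of tendon markers in these results was not tested.

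**Figure D3:**
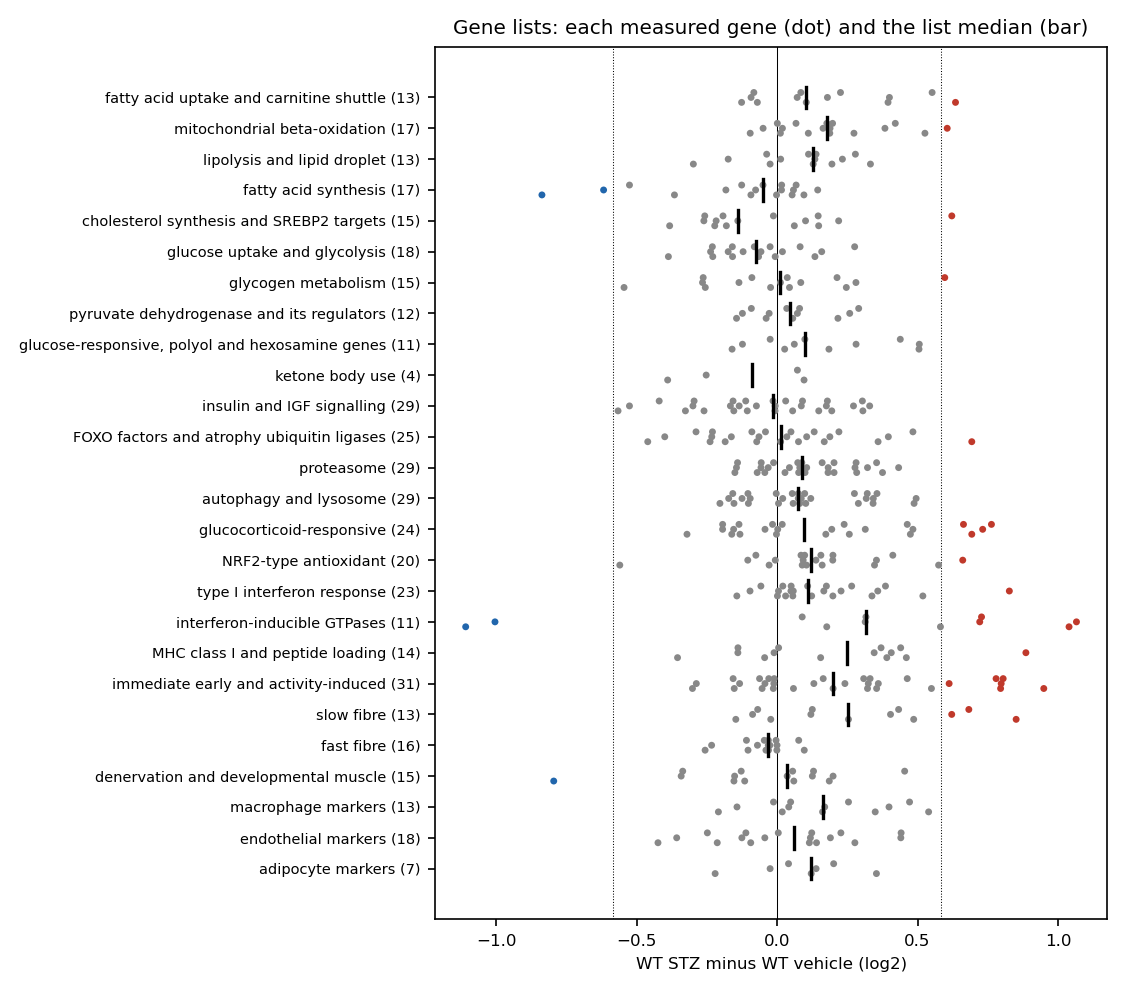
Each dot is a measured gene of a list, placed by WT STZ minus WT vehicle (log2), and each black bar is the list median, with the number of measured genes in brackets. Red dots are at least 1.5-fold higher, blue dots at least 1.5-fold lower, and dotted lines mark 1.5-fold. The widest list is that of the interferon-inducible GTPases, with a median of 0.32, and fast fibre genes lie close to 0.

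Most genes past 1.5-fold in WT did not pass it in KO, and the shares that did were above those of all genes. Of the 133 higher genes, 7 were also higher in KO (Iigp1, H2-Q4, Vmn1r127, Ifit1, Vmn1r103, Gbp3 and Rps23), which is 5.26% of the WT set and 13.7% of the 51 genes of the KO set, where 0.414% of all genes were higher in KO. Of the 47 lower genes, 3 were also lower in KO (Fasn, Kcng4 and Scd1), which is 6.38% of the WT set and 3.80% of the KO set, where 0.641% of all genes were lower in KO. In KO 69 of the 133 higher genes were above 0 (51.9%), against 42.0% of all protein-coding genes, and 28 of the 47 lower genes were below 0 (59.6%), against 57.8%. The shared higher genes hold 4 genes of interferon and antigen presentation, and the shared lower genes hold 2 of lipid synthesis. Vmn1r127 and Vmn1r103 belong to the vomeronasal receptors, a family of near-identical genes with dim values in muscle. Gbp3, Ifit1 and Rps23 were dim too. Their vehicle values, WT before KO, were 5.99 and 4.72 for Gbp3, 9.39 and 7.48 for Ifit1 and 7.64 and 4.92 for Rps23. Gbp3 passed the level filter only through its STZ values, so its place among the 7 shared genes is no sign that the pairs agree. A gene past 1.5-fold in the WT pair and not in the KO pair is not shown to differ between them, since there is no replicate to test it.

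**Figure D4:**
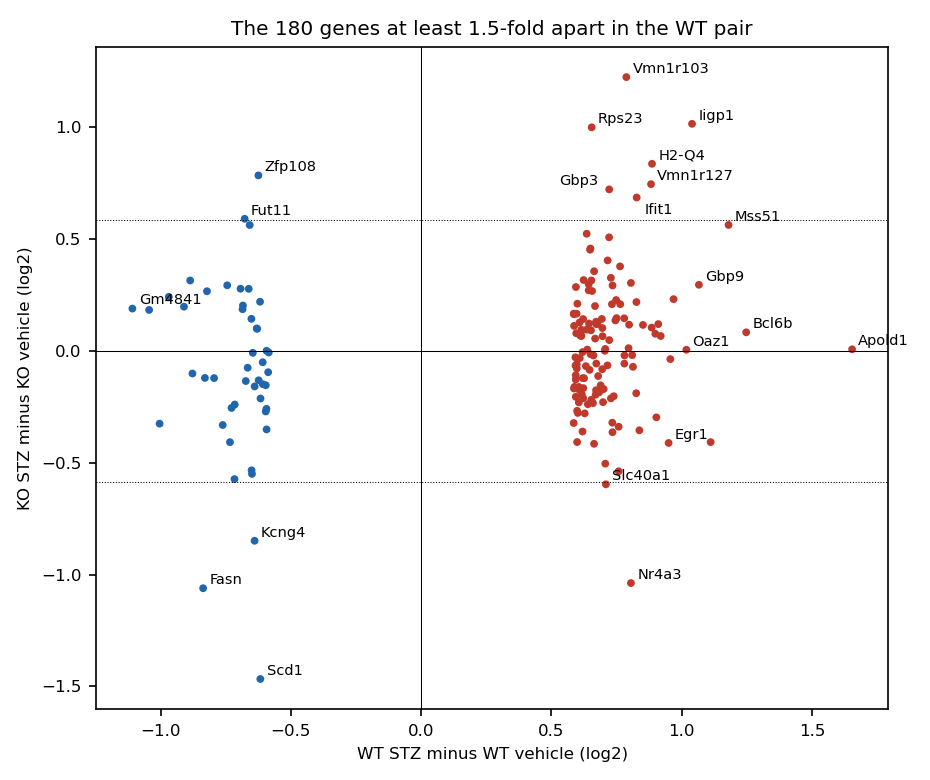
The 180 protein-coding genes at least 1.5-fold apart in WT, with WT STZ minus WT vehicle (log2) on the x axis and KO STZ minus KO vehicle (log2) on the y axis. Red points were higher and blue points lower in WT, dotted lines mark 1.5-fold in KO, and labels name the genes past it in KO and some of the largest in WT. Most points lie between the dotted lines, with Iigp1 and Ifit1 at the upper right, Fasn, Scd1 and Kcng4 at the lower left and Nr4a3 at the lower right.

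Small RNA genes were described apart from protein-coding genes. Of 193 measured, 22 were at least 1.5-fold higher (11.4%) and 5 lower (2.59%), shares well above those of protein-coding genes. Most of the higher ones were small nucleolar RNAs (snoRNAs), which guide chemical changes of ribosomal RNA and are mostly cut from introns of host genes. Whether their probes read the mature snoRNA or the uncut host intron is unknown. Of 63 snoRNAs 17 were at least 1.5-fold higher (27%) and 1 lower (1.59%), 57 were above 0, and the median was 0.37 in WT and 0.0089 in KO, with 0.33 in WT after quantile normalization. Snord58b stood at 30.2 and 89.8 in WT and 32.9 and 23.9 in KO, Snora15 at 7.298 and 20.7 in WT and 12.7 and 10.3 in KO, Snord1b at 54.6 and 118 in WT and 70.6 and 66.1 in KO and Snord70 at 118 and 230.4 in WT and 87.4 and 101 in KO. For these 4 the WT STZ array was high and the other 3 were lower and in no common order.

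A comparison with the host genes, added after the values had been seen, used 50 snoRNAs that lie in 1 measured host, 38 hosts in all. The snoRNA difference exceeded the host difference in 42 of 50 in WT and in 23 of 50 in KO. In WT the medians were 0.38 for the snoRNAs and 0.17 for their hosts, with 14 snoRNAs and 1 host at least 1.5-fold higher. With the 33 snoRNAs whose host was above level percentile 75, a choice made after seeing the data, the counts were 26 of 33 in WT and 12 of 33 in KO. The host of Snord58b is Rpl17, whose cluster stood at 6.11 and 6.09 in WT, close to the level filter of 5.81, so that it gives no usable host level. The host of Snora15 is Cct6a, a chaperonin subunit, at 486 and 512, and the host of Snord70 is Nop58, a core protein of snoRNA particles, at 67.3 and 61.3. For Snora15 and Snord70 the snoRNA was at least 1.5-fold higher and the host mRNA differed by less than 1.5-fold. Snord13, Snord118 and Snord89 lie in no annotated host, and stood at 0.62, -0.10 and 0.62.

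**Figure D5:**
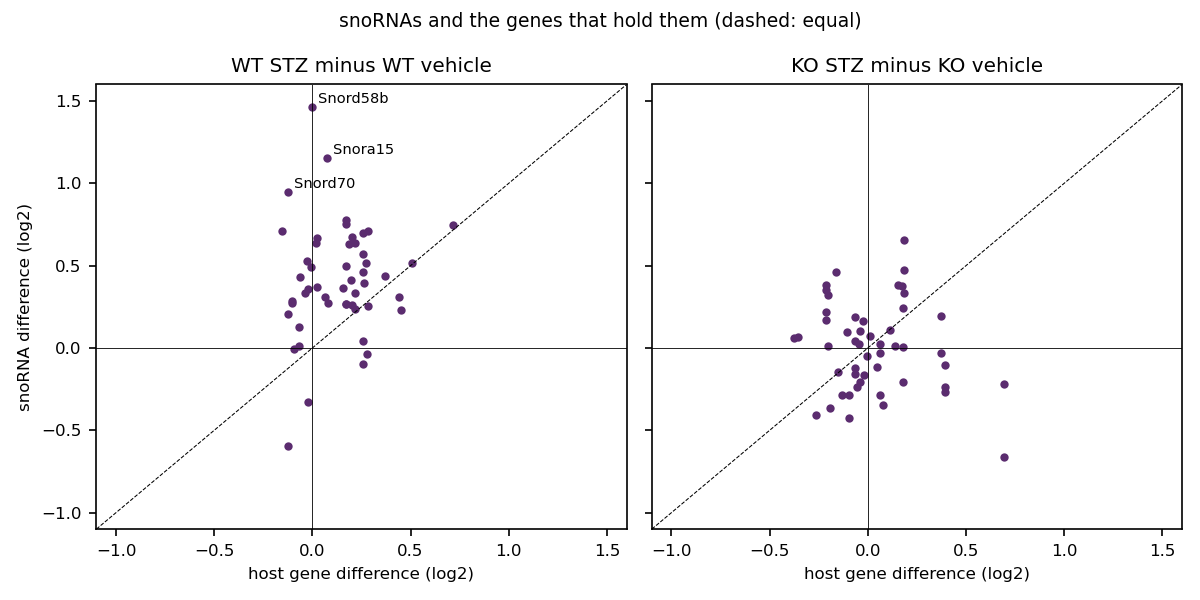
Each point is 1 of 50 snoRNAs, with the difference of its host gene (log2) on the x axis and its own difference (log2) on the y axis, for the WT pair (left) and the KO pair (right), and the dashed line marks equality. In WT 42 points lie above the line, and in KO 23 do. The host of Snord58b, Rpl17, was near the level filter.

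MicroRNA clusters are listed by gene, and which strand or precursor their probes read is unknown. Of 109 measured, 3 were at least 1.5-fold higher (2.75%) and 4 lower (3.67%), with a median of -0.078 in WT and -0.00065 in KO. The mature sequences of the lower genes and of Mir703, the higher gene named by the rule, are shown to see whether they share a seed, the bases 2 to 8 that pair with targets, in capitals (RefSeq, GRCm38.p6).
mmu-miR-1190: uCAGCUGAgguuccccucuguc
mmu-miR-188-5p: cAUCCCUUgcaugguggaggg
mmu-miR-188-3p: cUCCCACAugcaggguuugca
mmu-miR-149-5p: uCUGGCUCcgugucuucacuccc
mmu-miR-149-3p: gAGGGAGGgacgggggcggugc
mmu-miR-344d-2-5p: aGUCUGGUugcuggcuauauucca
mmu-miR-344d-3p: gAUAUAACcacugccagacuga
mmu-miR-703: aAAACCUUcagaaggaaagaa
No seed was shared among them. The genes lie on chromosomes 12 (Mir1190), X (Mir188), 1 (Mir149), 7 (Mir344d-2) and 5 (Mir703). Mir1190 stood at 18.5 and 9.93 in WT and 19.9 and 16.7 in KO, Mir188 at 18.4 and 10.02 in WT and 29.5 and 32.98 in KO, Mir149 at 12.01 and 6.44 in WT and 12.1 and 8.36 in KO and Mir344d-2 at 17.4 and 10.02 in WT and 14.1 and 11.8 in KO. Mir703 stood at 61.5 and 109 in WT and 52.98 and 35.4 in KO, highest in WT STZ and lowest in KO STZ. Mir188 was lowest in WT STZ and higher on both KO arrays, and Mir149 and Mir344d-2 passed 1.5-fold on dim values, and not with the offset at percentile 50 (-0.54 and -0.55).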

How the data were processed

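The authors deposited a table of linear intensity values, 1 per transcript cluster and array, for 41345 clusters, and per the labels biotin-labelled cRNA was made from 4 ug of total RNA by the Affymetrix protocol. Background correction, summary, scaling between arrays and detection calls are not stated there, and nothing else used here names them. Of the clusters 23521 had 1 gene symbol, 1814 several and 16010 none listed, and 23328 were matched to RefSeq (GRCm38.p6) through gene numbers. Values became log2(intensity + 3.69), with the offset at percentile 25 of all values. Of 22180 genes, each read by its brightest cluster, 13258 had a mean log2 over the 4 arrays above the median of all clusters (intensity 5.81) and were kept. They were 12321 protein-coding, 193 small RNA and 744 other genes. Groups came from the labels, and the array medians ran from 5.73 to 5.96. With 1 array per group, no p-value or error was made, and the number of arrays limits the precision.

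Counts and list medians were described beside those of all protein-coding genes. There were 42 pathway lists and 14 marker lists, with 926 distinct genes, of which 834 were matched and 769 kept. Lists overlap. The members and lists were chosen with earlier results of these data known. Genes were named by rule: the 20 largest differences each way, the 8 largest each way among small RNA, up to 4 genes per list, genes past 1.5-fold in both pairs, and 34 genes of interest. Others named here were chosen after their values were seen, among the 133 higher and 47 lower genes or in the lists. Alternatives were quantile normalization, a loess trend removed, offsets at percentiles 10 and 50, no level filter, a filter at percentile 75, and averaging over a gene's clusters. The counting code was run on simulated data with changes larger than 1.5-fold. That checks the code and not the 1.5-fold counts of these arrays. Python 3.11.15, pandas 2.3.3, numpy 2.4.6 and statsmodels 0.14.6 were used.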

Additional observations from a re-analysis of the deposited data

Results flagged for a closer look

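Genes past 1.5-fold in opposite directions in the WT and KO pairs were Nr4a3 (0.80 in WT and -1.04 in KO), Slc40a1, the iron exporter ferroportin (0.71 and -0.60), Fut11, a fucosyltransferase (-0.68 and 0.59), and Zfp108, a zinc finger gene (-0.62 and 0.78). With 1 array per group these differences between genotypes were not tested. Slc40a1 stood at 62.9 and 105 in WT and 82.3 and 53.2 in KO. Fut11 stood at 70.1 and 42.4 in WT and 76.03 and 116 in KO by its brighter cluster, and its other cluster differed by 0.092 in WT. Zfp108 was dim, at 12.2 and 6.65 in WT and 6.28 and 13.5 in KO. Its WT difference was -0.53 with the offset at percentile 50.

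Among 16010 clusters not listed with a gene, which enter no comparison above, 5629 were above the level filter, and 104 of these were at least 2-fold higher in WT STZ and 86 at least 2-fold lower. The KO pair had 92 and 117. Among clusters with 1 symbol, the WT counts were 14 and 3 of 13929.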

How the results depend on the processing

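Counts past the threshold kept within 1.5 times of the reported value under 7 alternatives, with these exceptions. Protein-coding genes at least 2-fold lower numbered 1 with the offset at percentile 50, against 3. Protein-coding genes at least 1.5-fold lower numbered 28 with the level filter at percentile 75, against 47. Small RNA genes at least 1.5-fold lower numbered 2 with the offset at percentile 50 and 2 with the filter at percentile 75, against 5. A higher filter tests fewer genes and a larger offset shrinks dim genes, by construction. For the 40 protein-coding genes with the largest differences, 260 values stayed past 1.5-fold under the alternatives. The 3 that did not were those of Rpl9, H2-Q4 and Sox21 when all clusters of a gene were averaged. Dim genes among the 40 that the filter at percentile 75 left out gave no value there and are not in these counts. Of 49 list medians, 11 turned sign under at least 1 alternative, and each of these was at most 0.095. No median of all protein-coding genes moved by more than 0.1. No paired analysis was possible because each group has 1 array. Dim genes near the level filter are limited by signal over background, which the table does not give.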

Other observations

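Mast cell genes, looked up after their values were seen, were measured for 3 of 9. Tpsb2, a tryptase, stood at 8.499 and 16.1 in WT and 12.998 and 10.5 in KO and Cpa3, the mast cell carboxypeptidase, at 10.2 and 17.4 in WT and 9.42 and 7.19 in KO, both at least 1.5-fold higher in WT STZ and both dim. Kit, the receptor that marks mast cells and their precursors, stood at 15.3 and 12.9 in WT and 16.8 and 13.01 in KO.

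Single genes outside the lists, chosen after their values were seen, stood past 1.5-fold in WT STZ. Tlcd1, a membrane lipid regulator, stood at 695 and 1113 in WT and 883 and 959.5 in KO, Hsd17b11, a lipid droplet dehydrogenase, at 17.5 and 33.4 in WT and 19.8 and 19.5 in KO and Gucy1a1, a subunit of the nitric oxide receptor, at 22.97 and 38.5 in WT and 29.7 and 21.3 in KO. Anxa1, a mediator of glucocorticoid effects on white blood cells, stood at 50.4 and 92.2 in WT and 62.7 and 73.6 in KO. Fxyd6, a regulator of the sodium pump, stood at 133 and 224 in WT and 226 and 175 in KO. On the lower side stood Hipk2, a nuclear kinase, at 339 and 214 in WT and 349 and 240.04 in KO, and Mical2, an actin oxidase, at 285 and 181 in WT and 187 and 167 in KO. Hipk2 and Parm1 (139 and 87.2 in WT and 149 and 101 in KO) were lower on both STZ arrays.

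Zinc finger genes named Zfp had 8 of 255 at least 1.5-fold higher and 2 lower (3.92% in all), and vomeronasal and olfactory receptors had 4 and 1 of 74 (6.76% in all). Among clusters with several gene symbols, 78 of 1114 above the level filter were at least 1.5-fold higher and 7 lower, against 201 and 60 of 13929 clusters with 1 symbol. Of 3 measured Y-linked genes, Eif2s3y differed by -0.022, Uty by 0.18 and Kdm5d by 0.34 in WT.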
